A study of Mus musculus with 24 samples.

Results

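Marrow-derived mesenchymal stem cells, multipotent stromal cells of the mouse bone marrow, were compared after 7 days in medium that drives them to fat cells and after 7 days in medium that drives them to bone cells. The comparison used 6 of the 24 libraries of the study: all 3 labelled adipogenic, day 7, vehicle, and all 3 labelled osteogenic, day 7, vehicle. Adipogenic medium held insulin (5 µg/mL), indomethacin (50 µM) and dexamethasone (0.1 µM), a synthetic glucocorticoid. Osteogenic medium held β-glycerophosphate (10 mM) and ascorbic acid (50 µg/mL), which supply phosphate and the cofactor of collagen hydroxylation. The media share no differentiating agent, so an effect of one agent cannot be told apart from that of another or of the cell fate. Both groups started at confluence from stocks of at most 10 passages in MEM alpha with 10% fetal bovine serum, and both received ethanol, the vehicle of vitamin D hormone, for the last 24 hours. The remaining 18 libraries were undifferentiated cells, osteogenic cells at day 15 and the same states treated with 100 nM 1,25(OH)2D3 (VD3), 3 libraries a group.

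Fat and bone cells of the marrow share a stromal precursor. Adipogenesis is known to run through the early factors Cebpb and Cebpd to Pparg and Cebpa, which switch on genes of lipid storage, and osteogenesis through Runx2 and Sp7 to genes of a type I collagen matrix that later mineralizes. Wnt and TGF-beta signals and a stretched, contractile cell shape are known to favour bone over fat. Insulin, a glucocorticoid and an agonist of Pparg, an activity that indomethacin has at high concentration, are common parts of mixtures that induce fat cells.

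Values are RPKM, reads scaled to transcript length and to the total of mapped reads, computed by the authors and summed here by gene symbol. A mean is given ± SD with n = 3 libraries in each group. A log2 difference is adipogenic minus osteogenic on the log2(RPKM + 1) scale, which understates the change of genes near or below 1 RPKM. "Rose" and "fell" mean higher and lower in adipogenic than in osteogenic cells with an adjusted p below 0.05 in limma's moderated test over all 21097 genes tested. Nothing in the labels says that replicates were separate cultures, so p-values reflect the variation among these libraries, which may be technical. In bulk RNA, fewer cells of a type and less RNA per cell cannot be told apart.

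Estimated depth was 25.00 to 26.22 M reads in the adipogenic libraries and 11.88 to 41.08 M in the osteogenic libraries, of which replicate 3 was the shallowest. A count of 3 reads on a transcript of 1 kilobase thus corresponds to 0.1144 to 0.1200 RPKM in the adipogenic and 0.0730 to 0.2525 RPKM in the osteogenic libraries. Libraries correlated at 0.9822 to 0.9901 within the 2 groups and at 0.8979 to 0.9124 between them. The median of 1497 olfactory, vomeronasal and taste receptor genes, which these cells are not known to use, was 0.599 to 0.835 RPKM in the adipogenic and 0.208 to 0.406 RPKM in the osteogenic libraries.

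Of the 21097 genes, 2626 rose (12.4%) and 5351 fell (25.4%). For 7864 of these 7977 genes the libraries of the 2 groups did not overlap. Separation was counted only among called genes, where the call itself favours it, so it is no separate support for the calls. At least 1 RPKM was reached by 12209 to 12947 genes in the 6 libraries compared and by 12409 to 20956 in the undifferentiated libraries. Many tested genes may thus have passed the filter only through undifferentiated libraries, which lowers the shares of 12.4% and 25.4%. With a filter of 5 RPKM, 2318 of 10738 genes rose and 4680 fell. The median log2 difference over all genes was 0.02. Under median-ratio rescaling it moved by 0.13, and the split changed to 3893 higher and 3825 lower, so the excess of falls rests on the scale of the deposited values. Subtracting each library's receptor-gene median from all its values gave 2041 rises and 5520 falls, so the count of rises also depends on that background. The rises were fewer but reached further. At least 4-fold changes numbered 405 up and 591 down, at least 16-fold changes 85 up and 34 down, and at least 64-fold changes 21 up and 2 down. A mean of at least 10 RPKM in adipogenic cells with less than 1 RPKM in every osteogenic library was found for 61 genes that rose, and the reverse for 31 genes that fell. The receptor-gene median was higher in the adipogenic (0.599 to 0.835 RPKM) than in the osteogenic libraries (0.208 to 0.406 RPKM). A level under 1 RPKM was thus harder to reach in adipogenic cells. The part of this background in these counts and in the largest folds was not tested.

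**Figure D1:**
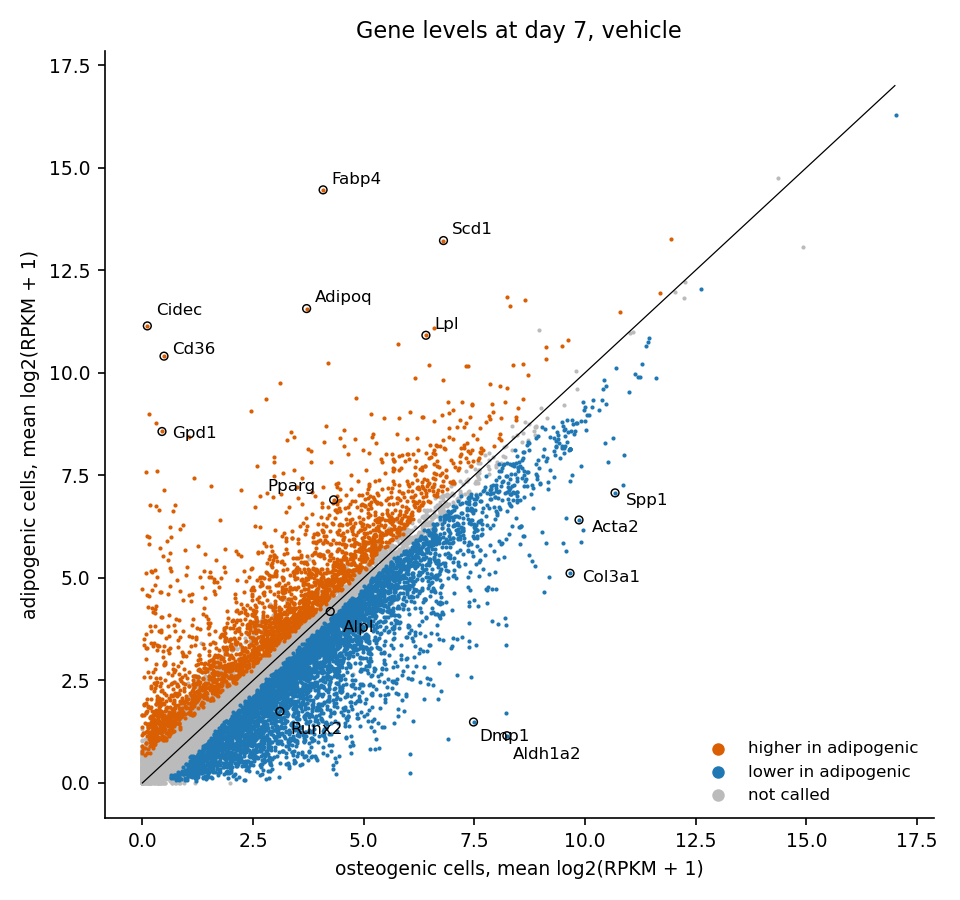
Mean level of each of the 21097 genes tested, as log2(RPKM + 1), in osteogenic (horizontal) and adipogenic cells (vertical), n = 3 libraries each. Orange points are the 2626 genes that rose, blue points the 5351 that fell and grey points the rest. The genes farthest above the diagonal, such as Fabp4, Cidec and Adipoq, are adipocyte genes, and those farthest below it include Aldh1a2, Dmp1 and Col3a1.

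The 15 largest rises among named protein-coding genes of at least 5 RPKM were Cidec, Fabp4, Cd36, Cfd, Sptlc3, Gpd1, Adipoq, Plin1, Agt, Aldh1a7, Lipe, Acsl1, G0s2, Ubd and Retn, with log2 differences between 6.44 and 11.03. Cidec, a protein that fuses lipid droplets, had 2321, 2154 and 2305 RPKM in the adipogenic libraries and 0.063, 0.188 and 0 RPKM in the osteogenic libraries. Fabp4, the fatty acid carrier of adipocytes, had 23561, 21905 and 22113 RPKM in the adipogenic libraries and 20.3, 15.2 and 13.1 RPKM in the osteogenic libraries. All 3 adipogenic libraries lay far above all 3 osteogenic ones for both genes, with log2 differences of 11.03 ± 0.18 (SE), adjusted p = 4.09e-22 for Cidec and 10.38 ± 0.18 (SE), adjusted p = 1.19e-21 for Fabp4. Fabp4 alone made up 3.96 to 4.17% of the summed RPKM of an adipogenic library and 0.00207 to 0.00316% of an osteogenic one. Among genes other than structural RNAs it was the most abundant of the adipogenic cells, ahead of the desaturase Scd1 (1.68 to 1.79% in adipogenic and 0.0165 to 0.0193% in osteogenic libraries).

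The 15 largest falls were Aldh1a2, D0H4S114, Dmp1, Actg2, Sfrp4, Il33, Col8a1, Fbn1, Plat, Kng2, Col3a1, Arl4c, Cygb, Tes and Il1rl1, with log2 differences between -7.08 and -4.42. Aldh1a2, which makes retinoic acid from retinaldehyde, had 1.45, 1.08 and 1.15 RPKM in the adipogenic libraries and 286, 318 and 297 RPKM in the osteogenic libraries. Dmp1, a matrix protein of late osteoblasts and osteocytes, had 2.11, 1.4 and 1.95 RPKM in the adipogenic libraries and 169.9, 175 and 189 RPKM in the osteogenic libraries. Neither gene's groups overlapped, with log2 differences of -7.08 ± 0.14 (SE), adjusted p = 5.61e-21 for Aldh1a2 and -5.99 ± 0.17 (SE), adjusted p = 5.43e-18 for Dmp1. The cytokine Il33 and its receptor Il1rl1 were both in this set, at 0.637 ± 0.089 in adipogenic and 66.2 ± 11.8 RPKM in osteogenic cells and at 0.775 ± 0.127 in adipogenic and 37.2 ± 3.55 RPKM in osteogenic cells. Of the remaining genes, D0H4S114 averaged 2.27 ± 0.486 in adipogenic and 295 ± 7.65 RPKM in osteogenic cells, and Kng2, a kininogen, 1.88 ± 0.333 in adipogenic and 68.5 ± 3.83 RPKM in osteogenic cells. The others are described with their groups below or belong to no list: Arl4c, a small GTPase, averaged 3.79 ± 1.01 in adipogenic and 106 ± 7.72 RPKM in osteogenic cells, Cygb, the globin cytoglobin, 0.807 ± 0.108 in adipogenic and 39.7 ± 1.3 RPKM in osteogenic cells, and Tes, a focal adhesion protein, 5.19 ± 0.37 in adipogenic and 136 ± 4.87 RPKM in osteogenic cells.

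Of 22 adipogenic transcription factors and coregulators tested, 16 rose, 0 fell and 6 did not pass the test, with a median log2 difference of 0.77. Pparg, the nuclear receptor that directs fat cell formation, had 119, 127 and 110.2 RPKM in the adipogenic libraries and 17.7, 22.7 and 17.1 RPKM in the osteogenic libraries. Its partner Cebpa had 173, 143 and 156 RPKM in the adipogenic libraries and 19.8, 16.6 and 25.7 RPKM in the osteogenic libraries. Both sets of libraries were separate for both genes, and the log2 differences were 2.58 ± 0.11 (SE), adjusted p = 4.01e-15 and 2.88 ± 0.16 (SE), adjusted p = 5.41e-13. The osteogenic cells still held both transcripts at levels above the receptor-gene median. The oxysterol receptor Nr1h3 (LXR alpha) averaged 97.4 ± 11.9 in adipogenic and 8.59 ± 1.61 RPKM in osteogenic cells, the phosphatidate phosphatase and coactivator Lpin1 74.7 ± 2.32 in adipogenic and 5.34 ± 0.0329 RPKM in osteogenic cells, and Klf15, a factor downstream of glucocorticoids, 6.35 ± 0.86 in adipogenic and 0.415 ± 0.239 RPKM in osteogenic cells. Srebf1, a driver of lipid synthesis, also rose (18.8 ± 0.411 in adipogenic and 6.5 ± 0.296 RPKM in osteogenic cells).

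The early factors of the cascade moved less. Cebpb averaged 37.3 ± 2.82 in adipogenic and 22.4 ± 2.95 RPKM in osteogenic cells, a log2 difference of 0.72 ± 0.25 (SE), adjusted p = 0.0287. This call was lost in 5 of the 6 fits that left out 1 library, with log2 differences of 0.65 to 0.75, and the difference was -0.32 among VD3-treated libraries. Cebpd had 10.6, 10.1 and 8.61 RPKM in the adipogenic libraries and 8.76, 10.1 and 9.79 RPKM in the osteogenic libraries, and its groups overlapped (log2 difference 0.03 ± 0.12 (SE), adjusted p = 0.897). Ebf2, which marks committed brown preadipocytes, averaged 1.52 ± 0.193 in adipogenic and 2.17 ± 0.533 RPKM in osteogenic cells (adjusted p = 0.135, and 0.0329 without osteogenic replicate 2). Among 14 genes listed as restraining fat cell formation, 1 rose, 7 fell and 6 did not pass the test, beside 12.4% higher and 25.4% lower over all genes tested. The Notch effector Hes1 fell the most (1.23 ± 0.436 in adipogenic and 14.9 ± 1.06 RPKM in osteogenic cells). The zinc finger factor Egr2 came next (1.19 ± 0.399 in adipogenic and 6.83 ± 0.627 RPKM in osteogenic cells). Egr2 is known to promote fat cell formation, so its fall is not that of a restraint. The orphan receptor Nr2f2 fell as well (1.93 ± 0.14 in adipogenic and 6.81 ± 0.99 RPKM in osteogenic cells). Ddit3 (CHOP), which can block C/EBP factors, was the one that rose (117 ± 9.49 in adipogenic and 20.5 ± 2.39 RPKM in osteogenic cells).

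**Figure D2:**
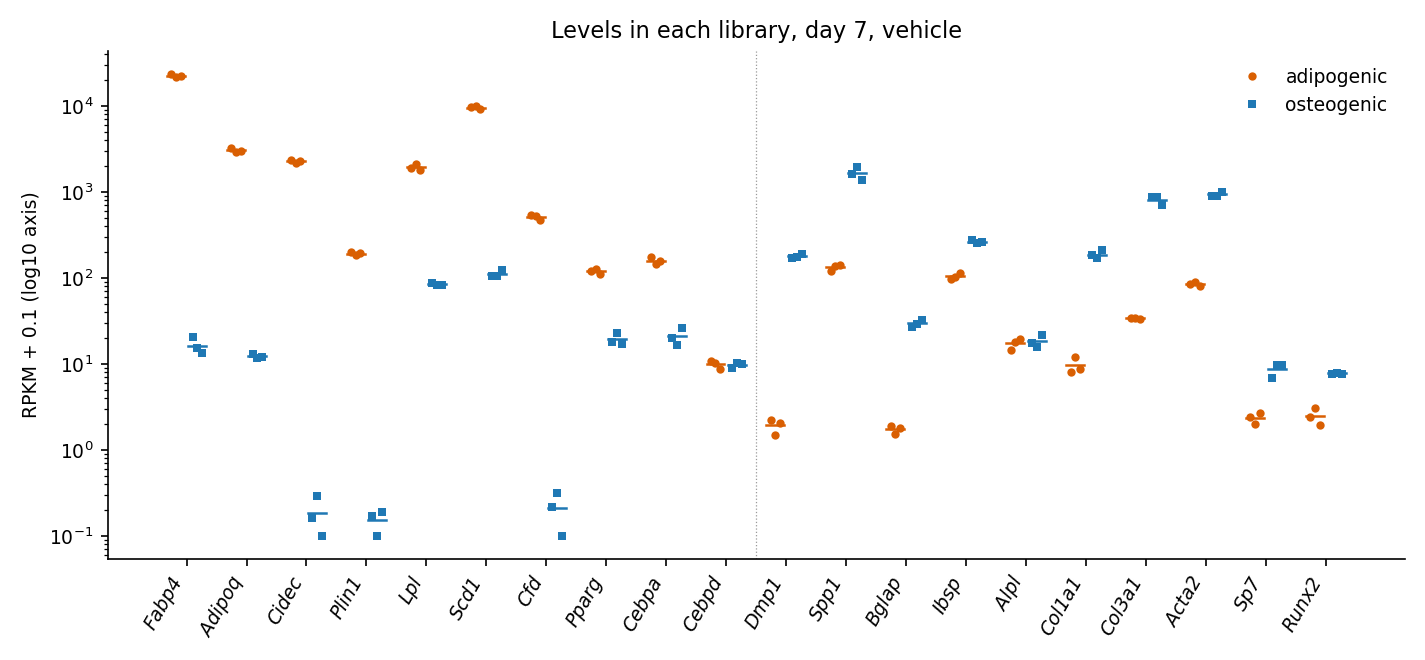
RPKM + 0.1 of 20 genes in each library on a log10 axis, with orange circles for the 3 adipogenic and blue squares for the 3 osteogenic libraries of each gene and a bar at each mean. Adipocyte genes from Fabp4 to Cebpd are on the left and genes of bone and contractile cells from Dmp1 to Runx2 on the right. Circles and squares are apart for every gene drawn except Cebpd and Alpl.

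The lipid droplet and lipolysis lists rose nearly throughout. Of 14 droplet proteins, 12 rose, 1 fell and 1 did not pass the test (median log2 difference 1.98). Plin1, the coat protein that gates lipolysis in adipocytes, had 199, 183 and 192 RPKM in the adipogenic libraries and 0.071, 0 and 0.09 RPKM in the osteogenic libraries. G0s2, an inhibitor of the lipase Pnpla2, averaged 537 ± 43 in adipogenic and 5.82 ± 5.73 RPKM in osteogenic cells, and Plin2, a coat protein found in most cell types, 1170.4 ± 43.5 in adipogenic and 88.2 ± 6.21 RPKM in osteogenic cells. The caveolar protein Cav1 fell (16.8 ± 1.15 in adipogenic and 36.5 ± 2.78 RPKM in osteogenic cells), whereas its partner Ptrf (cavin 1) rose (626 ± 36.4 in adipogenic and 148 ± 18.6 RPKM in osteogenic cells). All 11 lipolysis genes tested rose. They include the 3 lipases that act in sequence on triglyceride: Pnpla2 averaged 58.8 ± 10.02 in adipogenic and 0.464 ± 0.0996 RPKM in osteogenic cells, Lipe 140.5 ± 5.94 in adipogenic and 0.44 ± 0.324 RPKM in osteogenic cells and Mgll 29.8 ± 2.18 in adipogenic and 0.729 ± 0.218 RPKM in osteogenic cells. Adrb3, a beta-adrenergic receptor that starts lipolysis, was low, at 3.12 ± 0.505 in adipogenic and 0.282 ± 0.229 RPKM in osteogenic cells.

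Among 16 genes of fatty acid uptake and binding, 9 rose, 5 fell and 2 did not pass the test. Cd36, a transporter of long-chain fatty acids, had 1392, 1264 and 1413 RPKM in the adipogenic libraries and 0.236, 0.283 and 0.743 RPKM in the osteogenic libraries, with no overlap. Lpl, which releases fatty acids from lipoproteins, averaged 1933 ± 164 in adipogenic and 83.8 ± 3.4 RPKM in osteogenic cells, and the acyl-CoA synthetase Acsl1 856 ± 45.9 in adipogenic and 7.72 ± 1.64 RPKM in osteogenic cells. The falls included other members of the same families. Fabp3, the heart-type carrier, averaged 0.683 ± 0.751 in adipogenic and 12.4 ± 4.25 RPKM in osteogenic cells, the synthetases Acsl3 and Acsl4 30.4 ± 2.55 in adipogenic and 66 ± 2.3 RPKM in osteogenic cells and 32.4 ± 2.16 in adipogenic and 58.1 ± 4.21 RPKM in osteogenic cells, and the lipoprotein receptor Lrp1 28.6 ± 2.91 in adipogenic and 91 ± 9.86 RPKM in osteogenic cells.

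Of 26 genes of fatty acid and triglyceride synthesis, 19 rose, 2 fell and 5 did not pass the test, with a median log2 difference of 2.35. Gpd1, which makes the glycerol backbone, had 390.1, 351 and 396 RPKM in the adipogenic libraries and 0.335, 0.477 and 0.275 RPKM in the osteogenic libraries. Scd1, which introduces the double bond of oleate, had 9609.7, 9904 and 9176 RPKM in the adipogenic libraries and 106, 104 and 123 RPKM in the osteogenic libraries. Both were separate between the groups. The last acyl transfer to triglyceride rests on Dgat1 and Dgat2, which averaged 37.3 ± 2.31 in adipogenic and 2.63 ± 0.61 RPKM in osteogenic cells and 63 ± 4.6 in adipogenic and 0.607 ± 0.416 RPKM in osteogenic cells, and the pyruvate carboxylase Pcx averaged 211 ± 11.8 in adipogenic and 5.1 ± 0.81 RPKM in osteogenic cells. Fasn and Acaca, the fatty acid synthase and the carboxylase before it, also rose, with averages of 79.7 ± 1.05 in adipogenic and 11.3 ± 0.899 RPKM in osteogenic cells for Fasn and 47.6 ± 1.61 in adipogenic and 8.61 ± 0.135 RPKM in osteogenic cells for Acaca. Acly, which supplies their cytosolic acetyl-CoA from citrate, averaged 35.6 ± 2.84 in adipogenic and 35 ± 1.01 RPKM in osteogenic cells (adjusted p = 0.877). The elongases split: Elovl3 rose (55.4 ± 2.95 in adipogenic and 0.118 ± 0.205 RPKM in osteogenic cells), while Elovl6 (3.46 ± 0.111 in adipogenic and 14.7 ± 1.1 RPKM in osteogenic cells) and Elovl5 (17.9 ± 0.781 in adipogenic and 40.1 ± 1.69 RPKM in osteogenic cells) fell.

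Genes of mitochondrial fuel use rose almost without exception. Of 29 genes of fatty acid oxidation and peroxisomes 28 rose, of 25 citrate cycle and pyruvate dehydrogenase genes 24, and of 46 genes of the respiratory chain and ATP synthase 44. None of the 3 lists had a fall, and their median log2 differences were 2.12, 1.58 and 1.52. The peroxisomal enzyme Cat averaged 333 ± 16.1 in adipogenic and 27 ± 2.94 RPKM in osteogenic cells, and the carnitine acetyltransferase Crat 49.5 ± 4.64 in adipogenic and 3.37 ± 0.46 RPKM in osteogenic cells. Idh3a, a subunit of the citrate cycle's isocitrate dehydrogenase, had 175, 177 and 191 RPKM in the adipogenic libraries and 24.1, 23.5 and 28.1 RPKM in the osteogenic libraries. Atp5b, the catalytic subunit of ATP synthase, had 1201, 1090.4 and 1216 RPKM in the adipogenic libraries and 366, 309 and 321 RPKM in the osteogenic libraries, and every adipogenic library stood above every osteogenic one. Cpt1a, which admits fatty acids to mitochondria, averaged 8.39 ± 0.818 in adipogenic and 9.1 ± 1.02 RPKM in osteogenic cells (adjusted p = 0.654).

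Breakdown of branched-chain amino acids, a known source of acetyl-CoA in fat cells, went with them: of 22 genes 19 rose, 1 fell and 2 did not pass the test. Aldh6a1 averaged 189 ± 14.7 in adipogenic and 8.09 ± 0.925 RPKM in osteogenic cells. The mitochondrial aminotransferase Bcat2 averaged 42.6 ± 2.39 in adipogenic and 2.17 ± 0.059 RPKM in osteogenic cells, and its cytosolic relative Bcat1, the one that fell, 3.78 ± 0.592 in adipogenic and 21 ± 1.05 RPKM in osteogenic cells. Among 36 genes of mitochondrial biogenesis and import 20 rose and 4 fell. The coactivator Ppargc1b rose at a low level (2.56 ± 0.645 in adipogenic and 0.131 ± 0.0741 RPKM in osteogenic cells), Ppargc1a averaged 0.831 ± 0.272 in adipogenic and 0.268 ± 0.0959 RPKM in osteogenic cells (adjusted p = 0.151, and 0.0343 with a pseudocount of 0.1), and Tfam, which maintains mitochondrial DNA, 21.9 ± 2.29 in adipogenic and 19.2 ± 1.29 RPKM in osteogenic cells (adjusted p = 0.277).

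Brown and beige adipocyte genes gave a divided list, with 10 of 18 higher and 3 lower (6 higher and 3 lower after background subtraction). Ucp1, the uncoupling protein that defines brown fat, averaged 0.333 ± 0.0535 in adipogenic and 0.332 ± 0.147 RPKM in osteogenic cells, below the receptor-gene medians of the adipogenic libraries. Elovl3 and the droplet protein Cidea rose, but Cidea was low (2.89 ± 0.581 in adipogenic and 0.0563 ± 0.0976 RPKM in osteogenic cells). Dio2, which activates thyroid hormone, had 0.722, 0.421 and 0.859 RPKM in the adipogenic libraries and 27.5, 22.8 and 25.1 RPKM in the osteogenic libraries, and all adipogenic libraries were below all osteogenic ones.

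Of 22 adipokines and other secreted adipocyte proteins 15 rose and 1 fell. Adipoq (adiponectin) had 3235, 2886 and 2974 RPKM in the adipogenic libraries and 12.8, 11.5 and 12 RPKM in the osteogenic libraries. Cfd (adipsin), the complement protease secreted by fat, had 538, 527 and 476 RPKM in the adipogenic libraries and 0.116, 0.213 and 0 RPKM in the osteogenic libraries. The groups were apart for both, and Cfd was near 0 in osteogenic cells, whereas Adipoq was not. Retn (resistin) averaged 110.2 ± 30.4 in adipogenic and 0.259 ± 0.225 RPKM in osteogenic cells, Agt (angiotensinogen) 342 ± 8.52 in adipogenic and 1.11 ± 0.354 RPKM in osteogenic cells and Rarres2 (chemerin) 65.6 ± 2.22 in adipogenic and 12 ± 2.93 RPKM in osteogenic cells. Lep, the leptin gene, was near the detection limit in both groups, at 0.185 ± 0.033 in adipogenic and 0.333 ± 0.0734 RPKM in osteogenic cells (adjusted p = 0.682).

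Insulin signalling genes moved in both directions, with 12 of 22 higher and 7 lower. Slc2a4, the insulin-responsive glucose transporter, had 23.4, 21.6 and 23.5 RPKM in the adipogenic libraries and 0.038, 0.183 and 0 RPKM in the osteogenic libraries, with no overlap. The receptor Insr averaged 35.2 ± 3.26 in adipogenic and 7.1 ± 0.203 RPKM in osteogenic cells, whereas the related Igf1r averaged 1.66 ± 0.459 in adipogenic and 7.25 ± 0.549 RPKM in osteogenic cells. The adaptor Irs2 rose (3.05 ± 0.858 in adipogenic and 0.343 ± 0.249 RPKM in osteogenic cells) and Irs1 fell (22.6 ± 1.82 in adipogenic and 89.8 ± 9.06 RPKM in osteogenic cells). The kinases did the same, with Akt2 at 27.4 ± 1.59 in adipogenic and 15.1 ± 1.84 RPKM in osteogenic cells and Akt1 at 12 ± 1.44 in adipogenic and 29.99 ± 1.82 RPKM in osteogenic cells. Irs1 remained the more abundant adaptor of the adipogenic cells on the RPKM scale, which is per length.

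**Figure D3:**
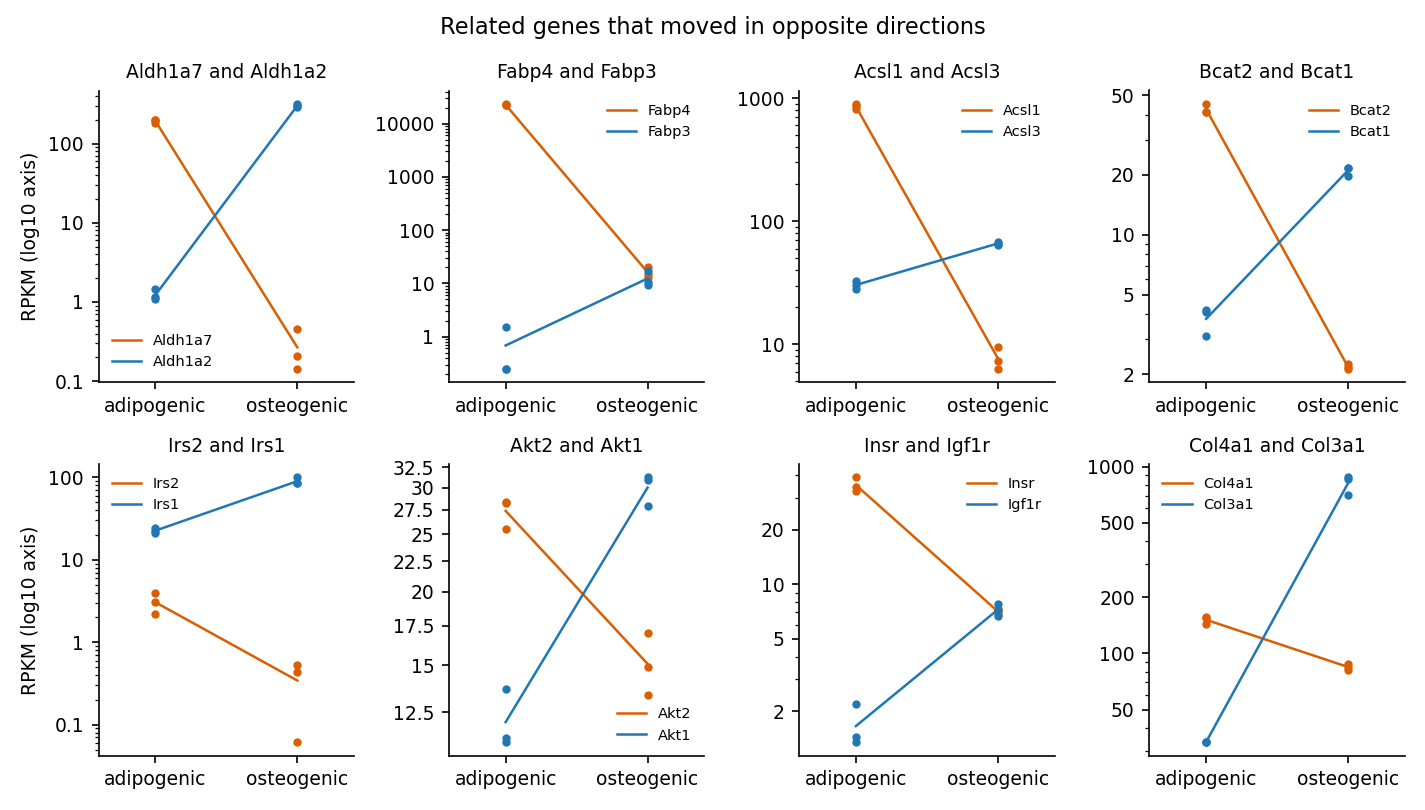
Mean RPKM on a log10 axis of 8 pairs of related genes, drawn as lines from adipogenic cells (left of each panel) to osteogenic cells (right), with the 3 libraries of each group as points. In each pair the gene in orange rose and the gene in blue fell, so the lines of a pair slope in opposite directions. The pairs were chosen after their values were seen.

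Genes known to respond to glucocorticoids rose in 15 of 22 cases and fell in 4, beside 12.4% higher and 25.4% lower over all genes tested. Only the adipogenic medium held dexamethasone. Fkbp5, a chaperone partner of the glucocorticoid receptor, had 138, 132 and 148 RPKM in the adipogenic libraries and 3.3, 2.93 and 5.08 RPKM in the osteogenic libraries. Zbtb16, a zinc finger factor, averaged 24.9 ± 1.48 in adipogenic and 0.163 ± 0.0661 RPKM in osteogenic cells, Tsc22d3 (GILZ) 163 ± 12.9 in adipogenic and 37.1 ± 3.55 RPKM in osteogenic cells and the glutamine synthetase Glul 345 ± 24.9 in adipogenic and 9.74 ± 0.76 RPKM in osteogenic cells. The receptor gene Nr3c1 itself averaged 45.8 ± 2.17 in adipogenic and 40.04 ± 1.36 RPKM in osteogenic cells (adjusted p = 0.0981, and higher by 0.48 on the log2 scale under median-ratio rescaling). Hsd11b1, which regenerates active glucocorticoid, rose (48.6 ± 4.37 in adipogenic and 5.26 ± 1.48 RPKM in osteogenic cells). Some responsive genes fell, no larger a share than over all genes tested. Errfi1, a feedback inhibitor of the EGF receptor, averaged 46.5 ± 2.37 in adipogenic and 424 ± 52.1 RPKM in osteogenic cells, and the phosphatase gene Dusp1 3.65 ± 0.303 in adipogenic and 7.1 ± 0.977 RPKM in osteogenic cells.

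On the bone side, of 25 osteoblast transcription factors tested 0 rose, 17 fell and 8 did not pass the test, with a median log2 difference of -1.06. Median-ratio rescaling gave 3 rises and 16 falls in this list, and quantile normalization 1 and 17. Runx2, required for osteoblast formation, had 2.33, 2.98 and 1.84 RPKM in the adipogenic libraries and 7.61, 7.72 and 7.52 RPKM in the osteogenic libraries. Sp7 (osterix), which acts after it, had 2.32, 1.88 and 2.59 RPKM in the adipogenic libraries and 6.72, 9.47 and 9.54 RPKM in the osteogenic libraries. All adipogenic libraries were below all osteogenic ones for both genes, with log2 differences of -1.36 ± 0.17 (SE), adjusted p = 6.2e-07 and -1.54 ± 0.17 (SE), adjusted p = 6.15e-08. Larger falls were those of Runx1 (0.707 ± 0.0538 in adipogenic and 18.2 ± 2.58 RPKM in osteogenic cells), the AP-1 factors Junb (2.24 ± 0.0622 in adipogenic and 15.9 ± 2.52 RPKM in osteogenic cells) and Fosl2 (4.67 ± 0.595 in adipogenic and 27.1 ± 0.805 RPKM in osteogenic cells), and the mesenchymal homeobox gene Prrx1 (31.9 ± 6.15 in adipogenic and 163 ± 5.13 RPKM in osteogenic cells). Dlx5 was near 0 in both groups, at 0.631 ± 0.385 in adipogenic and 0.471 ± 0.17 RPKM in osteogenic cells, and Atf4 was high in both, at 199.8 ± 8.12 in adipogenic and 183 ± 9.33 RPKM in osteogenic cells (adjusted p = 0.796 and 0.283).

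Of 24 bone matrix genes 2 rose, 17 fell and 5 did not pass the test (median log2 difference -1.36). Spp1 (osteopontin) had 121, 138 and 142 RPKM in the adipogenic libraries and 1609.9, 1967 and 1388 RPKM in the osteogenic libraries. It ranked among the 10 most abundant genes of the osteogenic cells, at 0.219 to 0.312% of their summed RPKM, and took 0.0214 to 0.026% in the adipogenic libraries. Col1a1, a chain of type I collagen, had 7.95, 12 and 8.52 RPKM in the adipogenic libraries and 182, 169 and 208 RPKM in the osteogenic libraries. The second chain, Col1a2, averaged 57 ± 1.73 in adipogenic and 731 ± 53.5 RPKM in osteogenic cells. Sparc (osteonectin), a collagen-binding protein of bone, averaged 314 ± 19.8 in adipogenic and 1390.4 ± 63.2 RPKM in osteogenic cells. Bglap (osteocalcin) had 1.77, 1.43 and 1.68 RPKM in the adipogenic libraries and 26.9, 29.2 and 32.2 RPKM in the osteogenic libraries. Its neighbour Bglap2 averaged 2.14 ± 0.977 in adipogenic and 23.6 ± 3.37 RPKM in osteogenic cells. The 2 osteocalcin genes are near-identical, so the share of reads given to each is uncertain, but both fell.

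Alpl and Ibsp stood apart from that pattern. Alpl, the tissue-nonspecific alkaline phosphatase used as an early osteoblast marker, had 14.4, 18 and 19.4 RPKM in the adipogenic libraries and 17.3, 15.7 and 21.3 RPKM in the osteogenic libraries. The groups overlapped, and the log2 difference was -0.06 ± 0.16 (SE), adjusted p = 0.82. Ibsp (bone sialoprotein) averaged 104 ± 7.89 in adipogenic and 264 ± 11.9 RPKM in osteogenic cells, a smaller gap (log2 difference -1.33) than those of Spp1, Bglap and Col1a1 (-3.61, -3.53 and -4.17). Phospho1, a phosphatase of matrix vesicles (2.65 ± 0.793 in adipogenic and 0.568 ± 0.684 RPKM in osteogenic cells), and Omd (osteomodulin), a keratan sulfate proteoglycan (83.1 ± 2.59 in adipogenic and 50.3 ± 10.7 RPKM in osteogenic cells), rose with vehicle. Among VD3-treated libraries no gene of the list was called higher, and Phospho1 had a log2 difference of 0.69 (adjusted p = 0.0711).

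Osteocyte genes fell in 8 of 11 cases, with none higher. The gap junction gene Gja1 (connexin 43) had 56.5, 55.7 and 59.4 RPKM in the adipogenic libraries and 983, 956 and 931 RPKM in the osteogenic libraries. The membrane metalloproteinase Mmp14 averaged 13.8 ± 0.78 in adipogenic and 262 ± 12.9 RPKM in osteogenic cells, podoplanin (Pdpn) 2.0 ± 0.661 in adipogenic and 36.9 ± 2.6 RPKM in osteogenic cells, and Phex, the endopeptidase lost in a hereditary form of rickets, 0.894 ± 0.155 in adipogenic and 26.1 ± 3.91 RPKM in osteogenic cells. Undifferentiated cells also held Gja1 (450 RPKM) and Mmp14 (124 RPKM), so neither is particular to osteocytes in these data. Among 22 genes of mineralization and phosphate handling 13 fell and 4 rose. The falls included inhibitors as well as promoters of mineralization. Mgp, an inhibitor, averaged 13.8 ± 3.38 in adipogenic and 299 ± 38.9 RPKM in osteogenic cells, Enpp1, which makes the inhibitor pyrophosphate, 0.772 ± 0.073 in adipogenic and 34.5 ± 2.86 RPKM in osteogenic cells, and Ank, which exports it, 5.86 ± 0.307 in adipogenic and 37.6 ± 3.25 RPKM in osteogenic cells. Slc20a1, a phosphate importer, averaged 20.01 ± 1.13 in adipogenic and 102 ± 3.96 RPKM in osteogenic cells.

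The promoters of 4 genes show what the start sites of such genes hold, given as 300 bases from 250 before to 50 after the start, from RefSeq on GRCm38.p6, with the searched motifs in capitals. They are Cebpa (chr7:35119043-35119342, plus strand) and Adipoq (chr16:23146286-23146585, plus strand), which rose, and Spp1 (chr5:104434861-104435160, plus strand, the first of 2 entries) and Bglap (chr3:88384417-88384716, minus strand), which fell.
Cebpa: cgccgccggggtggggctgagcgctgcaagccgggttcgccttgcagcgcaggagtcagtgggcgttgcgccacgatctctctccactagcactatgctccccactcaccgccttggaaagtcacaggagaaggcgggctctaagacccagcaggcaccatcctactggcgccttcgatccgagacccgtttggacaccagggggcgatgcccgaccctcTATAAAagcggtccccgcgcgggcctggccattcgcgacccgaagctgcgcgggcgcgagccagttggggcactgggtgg
Adipoq: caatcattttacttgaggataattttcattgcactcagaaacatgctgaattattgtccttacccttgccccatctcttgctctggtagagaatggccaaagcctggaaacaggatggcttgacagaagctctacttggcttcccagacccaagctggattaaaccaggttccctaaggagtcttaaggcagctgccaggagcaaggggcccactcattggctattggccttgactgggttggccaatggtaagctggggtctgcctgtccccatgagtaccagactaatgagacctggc
Spp1: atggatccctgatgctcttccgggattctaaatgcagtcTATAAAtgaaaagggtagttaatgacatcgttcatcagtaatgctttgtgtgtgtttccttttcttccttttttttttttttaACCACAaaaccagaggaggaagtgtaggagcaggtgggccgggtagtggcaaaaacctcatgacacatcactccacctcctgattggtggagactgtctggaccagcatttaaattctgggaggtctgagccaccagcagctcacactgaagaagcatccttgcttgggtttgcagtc
Bglap: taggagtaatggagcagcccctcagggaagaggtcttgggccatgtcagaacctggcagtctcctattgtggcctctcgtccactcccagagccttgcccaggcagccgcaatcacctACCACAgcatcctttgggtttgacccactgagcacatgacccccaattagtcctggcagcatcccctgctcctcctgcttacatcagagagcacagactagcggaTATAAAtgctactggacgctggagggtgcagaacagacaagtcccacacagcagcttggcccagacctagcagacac
The capitals are TATAAA on the gene's strand in Cebpa, none in Adipoq, and in both Spp1 and Bglap TATAAA and ACCACA, the reverse complement of the RUNX motif TGTGGT. Over genes at least 2-fold higher in adipogenic cells, genes at least 2-fold lower, and all tested genes with a promoter (803, 1368 and 13098 genes), TGTGGT on either strand was present in 16.2, 15.4 and 16.8%. The C/EBP motifs TTGCGCAA or TTGCACAA on either strand were present in 1.62, 1.54 and 1.5%. A direct repeat of AGGTCA with 1 base between, the kind of element that Pparg and its partner bind, was present in 1, 0 and 7 genes. TATAAA was present in 8.22, 7.89 and 9.31%. The shares of the motifs were thus close to those of all promoters in both classes, within these 300 bases. No promoter of Fabp4, Col1a1 or Bglap2 was used here.

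Collagen chains moved in both directions. Of 33 collagen chains 6 rose, 18 fell and 9 did not pass the test, beside 12.4% higher and 25.4% lower over all genes tested. Among the fibril-forming chains, Col3a1 had 33.6, 33.7 and 33.4 RPKM in the adipogenic libraries and 876, 859.9 and 703 RPKM in the osteogenic libraries, and Col5a1 and Col5a2 averaged 11.5 ± 0.262 in adipogenic and 63.9 ± 3.23 RPKM in osteogenic cells and 43.1 ± 1.75 in adipogenic and 262 ± 28.7 RPKM in osteogenic cells. Col5a3 averaged 7.68 ± 0.597 in adipogenic and 5.69 ± 0.971 RPKM in osteogenic cells (adjusted p = 0.0338), a rise whose call was lost without osteogenic replicate 2 (adjusted p = 0.217), adipogenic replicate 1 (0.0742) or adipogenic replicate 3 (0.127), after background subtraction (0.308) and with a pseudocount of 0.1 (0.0503). The short-chain collagen Col8a1 fell the most (9.38 ± 0.46 in adipogenic and 297 ± 16.1 RPKM in osteogenic cells). Some basement membrane and microfibril chains rose. Col4a1 had 156, 143 and 156 RPKM in the adipogenic libraries and 87.7, 84.9 and 81.5 RPKM in the osteogenic libraries, Col4a2 averaged 116 ± 0.18 in adipogenic and 62.1 ± 0.317 RPKM in osteogenic cells and Col6a3 335 ± 8.46 in adipogenic and 188 ± 5.1 RPKM in osteogenic cells. Col4a5 (3.21 ± 0.207 in adipogenic and 8.62 ± 0.955 RPKM in osteogenic cells) and Col6a1 (195 ± 12.8 in adipogenic and 273 ± 19.4 RPKM in osteogenic cells) fell, the call of Col6a1 being lost under median-ratio rescaling (log2 difference -0.19). The laminin chains Lama4 (23.6 ± 1.03 in adipogenic and 8.16 ± 1.11 RPKM in osteogenic cells) and Lamc1 (56 ± 5.23 in adipogenic and 26.7 ± 1.7 RPKM in osteogenic cells) rose, while the basement membrane linker Nid1 fell (40.3 ± 4.64 in adipogenic and 98.7 ± 5.34 RPKM in osteogenic cells). Fat cells are known to be wrapped in a basement membrane of type IV collagen and laminin.

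The enzymes that process collagen fell as a set, 22 of 26 lower and none higher (median log2 difference -1.77). The cross-linking lysyl oxidase Lox had 84.2, 103 and 76.3 RPKM in the adipogenic libraries and 729, 847 and 709 RPKM in the osteogenic libraries, and its relative Loxl3 averaged 4.22 ± 0.591 in adipogenic and 94.1 ± 4.12 RPKM in osteogenic cells. The lysyl hydroxylase Plod2 averaged 6.73 ± 0.379 in adipogenic and 50.9 ± 1.84 RPKM in osteogenic cells, the collagen chaperone Fkbp10 6.19 ± 0.768 in adipogenic and 62.1 ± 2.3 RPKM in osteogenic cells, and the procollagen protease Bmp1 5.61 ± 0.216 in adipogenic and 36.9 ± 1.56 RPKM in osteogenic cells. Of 46 matrix glycoproteins and proteoglycans 31 fell and 5 rose. Fbn1 (fibrillin 1) had 4.61, 4.89 and 5.45 RPKM in the adipogenic libraries and 171, 176 and 163 RPKM in the osteogenic libraries. Fibronectin (Fn1) averaged 26.1 ± 9.22 in adipogenic and 221 ± 15.3 RPKM in osteogenic cells, decorin (Dcn) 3.18 ± 0.424 in adipogenic and 81.7 ± 8.38 RPKM in osteogenic cells and thrombospondin 2 (Thbs2) 70.9 ± 1.39 in adipogenic and 994 ± 28.3 RPKM in osteogenic cells. Among 34 proteases and inhibitors 23 fell and 6 rose. The plasminogen activators Plat (3.17 ± 0.257 in adipogenic and 102 ± 11.2 RPKM in osteogenic cells) and Plau (1.85 ± 0.0435 in adipogenic and 35.6 ± 4.43 RPKM in osteogenic cells) fell, as did the inhibitors Timp1 (2.39 ± 0.511 in adipogenic and 59.2 ± 2.55 RPKM in osteogenic cells) and Timp3 (18.9 ± 0.489 in adipogenic and 191 ± 10.9 RPKM in osteogenic cells). Both activators and both inhibitors named were lower.

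**Figure D4:**
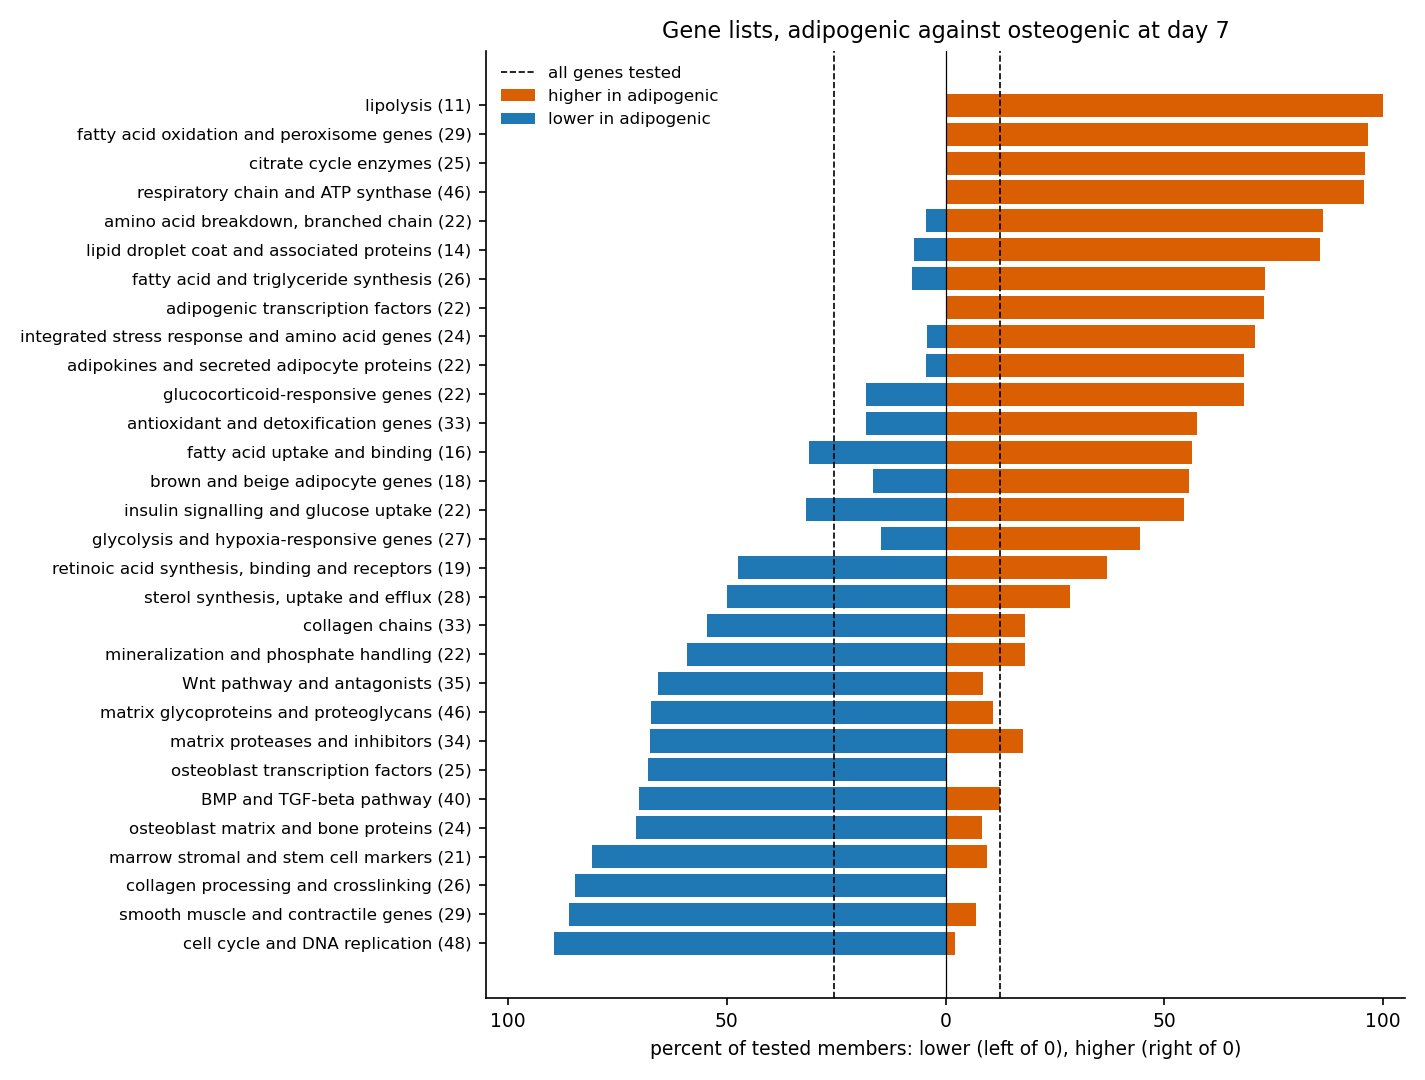
Percent of tested members of 30 gene lists that rose (orange, to the right) or fell (blue, to the left), with the number tested beside each name. Dashed lines mark the percentages over all 21097 genes, 12.4% higher and 25.4% lower. With a filter of 5 RPKM, 2318 of 10738 genes rose and 4680 fell, a larger share in both directions than the lines show. Metabolic lists at the top reach past the right line and lists of matrix, contraction and proliferation at the bottom past the left one.

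Contractile genes followed the matrix. Of 29 smooth muscle and contractile genes 2 rose, 25 fell and 2 did not pass the test (median log2 difference -2.28). Acta2, the smooth muscle actin of stress fibres, had 84.4, 88.3 and 79.8 RPKM in the adipogenic libraries and 897, 905 and 996 RPKM in the osteogenic libraries. Tpm1 (tropomyosin) had 154, 149.7 and 155 RPKM in the adipogenic libraries and 2015, 1602 and 2017 RPKM in the osteogenic libraries, which put it among the 10 most abundant genes of the osteogenic cells. The groups were apart for both. Actg2, a close relative of Acta2 with which it may share reads, averaged 1.14 ± 0.445 in adipogenic and 119 ± 4.77 RPKM in osteogenic cells, Tagln (transgelin) 9.12 ± 1.04 in adipogenic and 128 ± 2.85 RPKM in osteogenic cells and Csrp2 24.2 ± 1.91 in adipogenic and 542 ± 101 RPKM in osteogenic cells. Mcam (CD146), an adhesion molecule of pericytes, went against the list (37.8 ± 3.17 in adipogenic and 1.03 ± 0.256 RPKM in osteogenic cells), as did Myh11 (1.61 ± 0.392 in adipogenic and 0.243 ± 0.0974 RPKM in osteogenic cells).

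Among 20 genes of the YAP, TEAD and SRF programme, which answers to cell spreading and tension, 16 fell and 2 rose. The targets moved by more than the regulators. Ctgf had 14.1, 15.1 and 16.4 RPKM in the adipogenic libraries and 297, 250.4 and 334 RPKM in the osteogenic libraries, Cyr61 averaged 19 ± 2.58 in adipogenic and 165 ± 15.3 RPKM in osteogenic cells and the receptor kinase Axl 4.52 ± 0.324 in adipogenic and 76.3 ± 6.95 RPKM in osteogenic cells. The coactivator Yap1 averaged 27.5 ± 1.99 in adipogenic and 34.5 ± 2.17 RPKM in osteogenic cells, a fall that was lost under median-ratio rescaling (log2 difference -0.03), and Wwtr1 (TAZ) 47.4 ± 3.6 in adipogenic and 52.2 ± 2.09 RPKM in osteogenic cells (adjusted p = 0.188). Of 18 integrins 10 fell and 3 rose, beside 25.4% lower and 12.4% higher over all genes tested. With a filter of 5 RPKM, 4680 of 10738 genes fell. The integrin falls included the fibronectin- and vitronectin-binding subunits Itgav (29.6 ± 0.39 in adipogenic and 105 ± 1.67 RPKM in osteogenic cells) and Itgb5 (13.3 ± 0.331 in adipogenic and 63.5 ± 4.22 RPKM in osteogenic cells). The laminin-binding subunits Itga6 (69.3 ± 1.95 in adipogenic and 9.49 ± 0.385 RPKM in osteogenic cells) and Itga7 (11 ± 1.21 in adipogenic and 0.549 ± 0.406 RPKM in osteogenic cells) rose.

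Wnt pathway genes fell in 23 of 35 cases and rose in 3. Ligands, receptors and secreted antagonists were all among the falls. The antagonist Sfrp4 had 0.293, 0.16 and 0.13 RPKM in the adipogenic libraries and 71.3, 65.1 and 60.05 RPKM in the osteogenic libraries, and Sfrp1 averaged 3.39 ± 0.549 in adipogenic and 61.4 ± 5.18 RPKM in osteogenic cells. Of the ligands, Wnt10b, known to hold back fat cell formation, averaged 1.55 ± 0.305 in adipogenic and 3.95 ± 0.64 RPKM in osteogenic cells, and Wnt5a 10.4 ± 0.248 in adipogenic and 24.4 ± 1.69 RPKM in osteogenic cells. The receptors Fzd1 and Fzd2 averaged 11.8 ± 0.559 in adipogenic and 70.3 ± 4.07 RPKM in osteogenic cells and 1.06 ± 0.108 in adipogenic and 13.7 ± 1.12 RPKM in osteogenic cells, whereas Fzd4 rose (26.5 ± 4.76 in adipogenic and 1.57 ± 0.452 RPKM in osteogenic cells). Axin2, a feedback target of beta-catenin, was low, at 0.301 ± 0.255 in adipogenic and 1.68 ± 0.161 RPKM in osteogenic cells.

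In the BMP and TGF-beta list 28 of 40 fell and 5 rose. Inhba, the activin A subunit, had 2.69, 2.18 and 2.67 RPKM in the adipogenic libraries and 46.5, 59 and 55.5 RPKM in the osteogenic libraries. The ligands Tgfb2 (3.55 ± 0.515 in adipogenic and 52.1 ± 0.981 RPKM in osteogenic cells), Tgfb3 (8.32 ± 0.726 in adipogenic and 84.9 ± 5.41 RPKM in osteogenic cells) and Bmp2 (0.368 ± 0.077 in adipogenic and 8.78 ± 1.12 RPKM in osteogenic cells) and the receptor Tgfbr2 (9.64 ± 0.8 in adipogenic and 38.1 ± 1.71 RPKM in osteogenic cells) fell. The activin-binding protein Fst rose (12.5 ± 1.43 in adipogenic and 6.74 ± 1.82 RPKM in osteogenic cells), while the related Fstl1 fell (49.2 ± 1.47 in adipogenic and 763 ± 49.99 RPKM in osteogenic cells). Id1, a direct target of BMP signals, averaged 9.82 ± 1.66 in adipogenic and 6.23 ± 1.83 RPKM in osteogenic cells, and its call was lost without osteogenic replicate 2 (adjusted p = 0.144) or adipogenic replicate 1 (adjusted p = 0.0754).

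Among factors that act on osteoclasts and blood-forming cells 8 of 12 fell. Cxcl12, which retains stem cells in the marrow, had 48.9, 63.9 and 54.5 RPKM in the adipogenic libraries and 369.9, 356 and 379 RPKM in the osteogenic libraries. The osteoclast inhibitor Tnfrsf11b (osteoprotegerin) averaged 2.9 ± 0.237 in adipogenic and 31.7 ± 1.4 RPKM in osteogenic cells, Csf1 17.1 ± 2.43 in adipogenic and 46.8 ± 5.04 RPKM in osteogenic cells, and the osteoclast inducer Tnfsf11 (RANKL) only 0.17 ± 0.107 in adipogenic and 1.16 ± 0.692 RPKM in osteogenic cells, a call lost without osteogenic replicate 1 (adjusted p = 0.0687). Kitl (stem cell factor) was the one that rose, with 108, 117 and 113 RPKM in the adipogenic libraries and 18.1, 18.6 and 19.3 RPKM in the osteogenic libraries and no overlap. Of the chemokines and inflammatory genes, Ccl7 averaged 1.57 ± 0.167 in adipogenic and 41.5 ± 4.44 RPKM in osteogenic cells and Ptgs2, the inducible cyclooxygenase that indomethacin inhibits, 1.03 ± 0.24 in adipogenic and 13.2 ± 1.42 RPKM in osteogenic cells. Complement C3 rose (52.4 ± 2.45 in adipogenic and 0.326 ± 0.165 RPKM in osteogenic cells), as did Lcn2 (lipocalin 2, 64.4 ± 10.9 in adipogenic and 0.0787 ± 0.0876 RPKM in osteogenic cells). Interferon-responsive genes fell in 13 of 26 cases, with 3 higher, beside 25.4% lower and 12.4% higher over all genes tested. With a filter of 5 RPKM, 4680 of 10738 genes fell. Of the 26 interferon-responsive genes, 6 were lower and 5 higher among VD3-treated libraries, and median-ratio rescaling left 9 falls. The class I genes H2-K1 (78 ± 1.19 in adipogenic and 24.1 ± 5.1 RPKM in osteogenic cells) and H2-D1 (145 ± 7.02 in adipogenic and 49.3 ± 6.7 RPKM in osteogenic cells) rose, while the immunoproteasome subunit Psmb8 fell (4.51 ± 1.09 in adipogenic and 19.8 ± 2.33 RPKM in osteogenic cells). Their family members share sequence, so the split of reads among them is uncertain.

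Cell cycle genes were lower in adipogenic cells in 43 of 48 cases, with a median log2 difference of -1.86. Rrm2, which supplies nucleotides for DNA synthesis, had 1.78, 2.45 and 1.82 RPKM in the adipogenic libraries and 28.5, 28.2 and 26.5 RPKM in the osteogenic libraries. Ccnd1 (cyclin D1) had 25.9, 25.1 and 28.4 RPKM in the adipogenic libraries and 216, 203 and 258 RPKM in the osteogenic libraries. Neither gene's groups overlapped. Top2a averaged 4.1 ± 0.292 in adipogenic and 45.4 ± 3.39 RPKM in osteogenic cells and the proliferation marker Mki67 2.83 ± 0.659 in adipogenic and 15.4 ± 0.926 RPKM in osteogenic cells. Cdkn2c, an inhibitor of Cdk4 and Cdk6, was the one that rose (86.2 ± 3.93 in adipogenic and 41.1 ± 5.04 RPKM in osteogenic cells). The inhibitors Cdkn2a and Cdkn2b fell with the cyclins, with averages of 6.87 ± 0.877 in adipogenic and 17.6 ± 3.22 RPKM in osteogenic cells for Cdkn2a and 33 ± 0.861 in adipogenic and 103 ± 6.66 RPKM in osteogenic cells for Cdkn2b, and Cdkn1a averaged 17 ± 2.31 in adipogenic and 13.9 ± 1.38 RPKM in osteogenic cells (adjusted p = 0.418).

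Among retinoid genes some enzymes rose and others fell. Aldh1a2, described above, fell, and Aldh1a7 had 197, 181 and 199 RPKM in the adipogenic libraries and 0.453, 0.143 and 0.207 RPKM in the osteogenic libraries. Its near relative Aldh1a1, which may share reads with it, averaged 5.91 ± 1.69 in adipogenic and 0.677 ± 0.213 RPKM in osteogenic cells, and Retsat, the retinol saturase, 134 ± 10.5 in adipogenic and 6.09 ± 1.25 RPKM in osteogenic cells. The retinoic acid receptors Rarb (1.45 ± 0.386 in adipogenic and 13.3 ± 0.178 RPKM in osteogenic cells) and Rarg (3.89 ± 0.0846 in adipogenic and 14.8 ± 1.98 RPKM in osteogenic cells) fell, and so did the retinoic acid-degrading enzymes Cyp26a1 (0.0883 ± 0.0594 in adipogenic and 1.32 ± 0.513 RPKM in osteogenic cells) and Cyp26b1 (0.704 ± 0.124 in adipogenic and 4.09 ± 0.538 RPKM in osteogenic cells). In all, 7 of 19 genes rose and 9 fell, beside 12.4% higher and 25.4% lower over all genes tested.

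Sterol genes moved in both directions. The cholesterol exporters Abca1 (41.9 ± 2.79 in adipogenic and 7.26 ± 0.832 RPKM in osteogenic cells) and Abcg1 (24.8 ± 1.63 in adipogenic and 0.809 ± 0.247 RPKM in osteogenic cells), both targets of Nr1h3, rose. The synthesis enzyme Sqle (14.2 ± 0.323 in adipogenic and 55.8 ± 2.05 RPKM in osteogenic cells) fell, but Cyp51, a later step, rose (286 ± 34 in adipogenic and 112 ± 5.63 RPKM in osteogenic cells). Insig1, a sterol sensor, had 671, 564 and 651 RPKM in the adipogenic libraries and 122, 116 and 118 RPKM in the osteogenic libraries. Over the list 8 of 28 rose and 14 fell, beside 12.4% higher and 25.4% lower over all genes tested. Among VD3-treated libraries 9 were higher and 9 lower.

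Genes of the integrated stress response, which slows translation and raises amino acid supply, rose in 17 of 24 cases and fell in 1. Trib3 had 34.9, 39.3 and 31.3 RPKM in the adipogenic libraries and 1.13, 2.16 and 1.74 RPKM in the osteogenic libraries, Atf3 averaged 51.3 ± 6.65 in adipogenic and 2.66 ± 0.371 RPKM in osteogenic cells, and the oxidase Ero1l of the endoplasmic reticulum 227 ± 40.03 in adipogenic and 13 ± 1.06 RPKM in osteogenic cells. Hspa5 (BiP), the main chaperone of that compartment, averaged 1569 ± 6.27 in adipogenic and 558 ± 51.1 RPKM in osteogenic cells. Detoxification genes rose in 19 of 33 cases and fell in 6. The glutathione transferase Gsta3 averaged 63.1 ± 4.7 in adipogenic and 0.121 ± 0.209 RPKM in osteogenic cells, Ephx2, an epoxide hydrolase, 150.4 ± 7.16 in adipogenic and 1.94 ± 0.501 RPKM in osteogenic cells, and Hmox1 (heme oxygenase 1) 156 ± 1.71 in adipogenic and 19.7 ± 2.27 RPKM in osteogenic cells. Nfe2l2 (NRF2), which drives several of these genes, fell (17.8 ± 2.85 in adipogenic and 26.7 ± 2.93 RPKM in osteogenic cells). In glycolysis 12 of 27 genes rose and 4 fell, with the aldolase Aldoa (522 ± 13.4 in adipogenic and 121 ± 9.23 RPKM in osteogenic cells) and the hypoxia-responsive Bnip3 (172 ± 7.43 in adipogenic and 11.6 ± 3.87 RPKM in osteogenic cells) among the rises.

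Markers of marrow stromal and stem cells were lower in adipogenic than in osteogenic cells in 17 of 21 cases and higher in 2. Pdgfra, the growth factor receptor of stromal precursors, had 8.34, 8.83 and 7.93 RPKM in the adipogenic libraries and 81.7, 77.4 and 81.4 RPKM in the osteogenic libraries. Cd44 averaged 3.46 ± 1.39 in adipogenic and 25.2 ± 2.55 RPKM in osteogenic cells and Ly6a (Sca-1) 7.94 ± 0.438 in adipogenic and 33.8 ± 6.82 RPKM in osteogenic cells. Undifferentiated cells averaged 70.3 RPKM for Pdgfra, 11.4 RPKM for Cd44 and 47.2 RPKM for Ly6a. Cd44 was thus higher in osteogenic than in undifferentiated cells, a description with no test. Defining markers of several other cell types were near 0 in both groups: the leukocyte gene Ptprc had 0.317 to 0.458 RPKM in adipogenic and 0.203 to 0.434 RPKM in osteogenic libraries, the endothelial gene Pecam1 0.012 to 0.128 RPKM in adipogenic and 0.016 to 0.156 RPKM in osteogenic libraries, and the muscle factor Myod1 0.043 to 0.144 RPKM in adipogenic and 0 to 0.158 RPKM in osteogenic libraries. Other markers of those types were above 1 RPKM in one group. The growth factor receptor Kdr of endothelium had 0.199 to 0.392 RPKM in adipogenic and 2.64 to 2.99 RPKM in osteogenic libraries, the muscle actin Acta1 4.56 to 5.88 RPKM in adipogenic and 0.354 to 0.875 RPKM in osteogenic libraries, and the macrophage lysozyme Lyz2 1.86 to 3.75 RPKM in adipogenic and 0.675 to 1.21 RPKM in osteogenic libraries. The 11 hepatocyte and erythroid markers summed to 28 to 32.8 RPKM in adipogenic and 2.41 to 5.16 RPKM in osteogenic libraries. Cyp2e1, a cytochrome P450 of liver, made up most of the adipogenic sum (23.6 ± 2.8 in adipogenic and 0.606 ± 0.774 RPKM in osteogenic cells), while the albumin gene Alb had 0.252, 0.354 and 0.187 RPKM in the adipogenic libraries and 0.118, 0.108 and 0.458 RPKM in the osteogenic libraries. The part of other cells in these levels was not tested. Of 13 macrophage and blood markers tested 2 rose and 1 fell, beside 12.4% higher and 25.4% lower over all genes tested. The summed level of all 21 on the list was 7.11 to 10.8 RPKM in adipogenic and 8.87 to 12.7 RPKM in osteogenic libraries, with the macrophage marker Cd68 at 1.36 to 1.63 RPKM in adipogenic and 0.159 to 0.591 RPKM in osteogenic libraries. The osteoclast enzyme gene Acp5 was at most 0.058 RPKM in adipogenic and 0.49 RPKM in osteogenic libraries. Ctsk, a protease of osteoclasts that stromal cells also make, averaged 10.4 ± 0.854 in adipogenic and 103 ± 10.5 RPKM in osteogenic cells. Of the cartilage genes, the factor Sox9 had 0.331 to 0.455 RPKM in adipogenic and 2.01 to 3.62 RPKM in osteogenic libraries and the collagen Col2a1 0.817 to 1.07 RPKM in adipogenic and 0.445 to 0.713 RPKM in osteogenic libraries, and Col10a1, of hypertrophic cartilage, had 0.115 to 0.39 RPKM in adipogenic and 6.25 to 6.96 RPKM in osteogenic libraries.

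Vdr, the vitamin D receptor, averaged 0.779 ± 0.0533 in adipogenic and 1.18 ± 0.485 RPKM in osteogenic cells (adjusted p = 0.279, and 0.0417 without osteogenic replicate 2), and its target Cyp24a1 0.252 ± 0.135 in adipogenic and 0.109 ± 0.096 RPKM in osteogenic cells (adjusted p = 0.572), in the absence of added hormone. Cyp27a1, a sterol hydroxylase able to act on vitamin D, rose (11 ± 0.943 in adipogenic and 1.09 ± 0.199 RPKM in osteogenic cells). Among noncoding RNAs, Malat1 averaged 9874 ± 154 in adipogenic and 3930.5 ± 327 RPKM in osteogenic cells and Neat1 206 ± 37 in adipogenic and 50.03 ± 1.16 RPKM in osteogenic cells. Both rose, Malat1 not under quantile normalization (log2 difference 0.57). The small nuclear RNA Rn7sk held 11.6 to 16.8% of the summed RPKM of an adipogenic library and 19.4 to 22.2% of an osteogenic one.

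The same comparison could be made in other libraries, the 3 adipogenic and 3 osteogenic ones treated with VD3 for the last 24 hours. The labels do not say whether their cultures were separate from the vehicle ones, and both comparisons came from 1 fit. There 2555 genes were higher (12.1%) and 5416 lower (25.7%). Of the calls with vehicle, 6656 were repeated with the same sign, which is 83.4% of the vehicle calls and 83.5% of the VD3 calls, and 23 were called with the opposite sign. Of the 3440 changes of at least 2-fold, 3243 were repeated. With VD3, Fabp4 averaged 20617 ± 1512 in adipogenic and 17.7 ± 4.94 RPKM in osteogenic cells, Adipoq 3556 ± 267 in adipogenic and 11.1 ± 2.19 RPKM in osteogenic cells, Dmp1 1.98 ± 0.726 in adipogenic and 140.2 ± 35.7 RPKM in osteogenic cells and Col3a1 39.6 ± 1.73 in adipogenic and 789.9 ± 69.7 RPKM in osteogenic cells. The log2 differences of these 4 genes were 10.13, 8.22, -5.57 and -4.28 with VD3, beside 10.38, 7.85, -5.99 and -4.55 with vehicle.

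**Figure D5:**
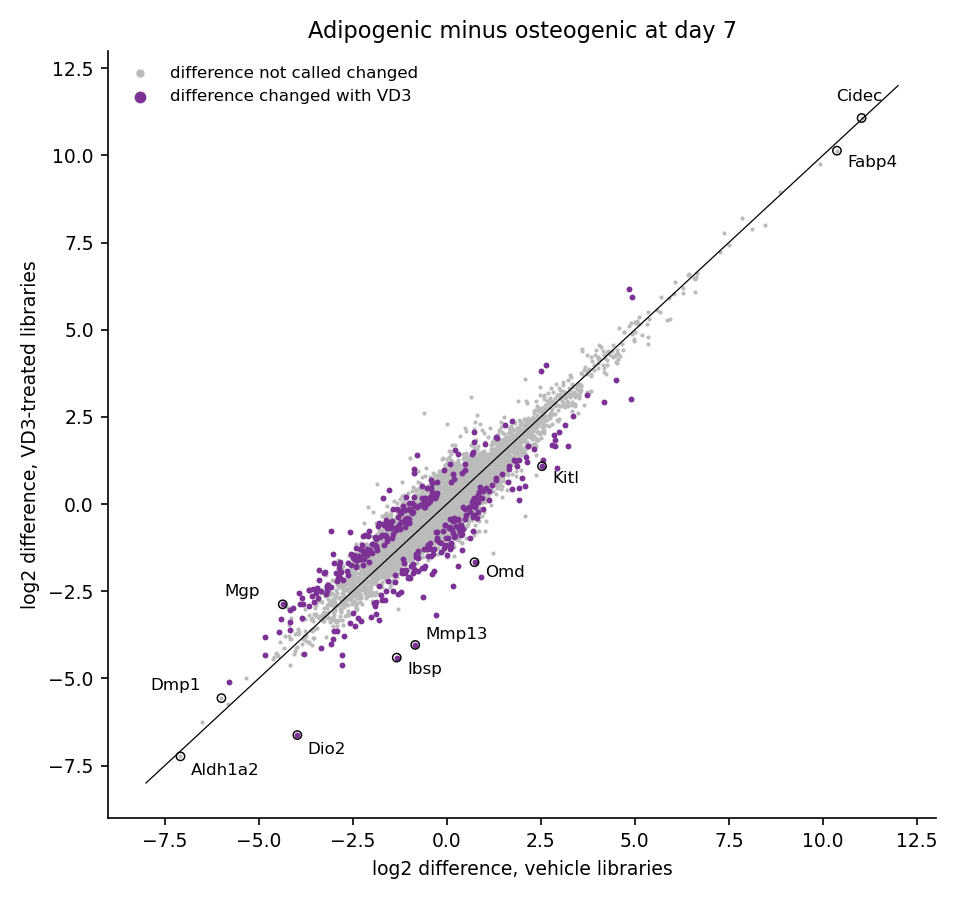
Log2 difference (adipogenic minus osteogenic, log2(RPKM + 1) scale) among vehicle libraries (horizontal) and among VD3-treated libraries (vertical) for the 21097 genes tested, n = 3 libraries per group. Purple points are the 384 genes whose difference itself changed between treatments. Most points follow the diagonal, while Ibsp, Mmp13, Dio2 and Omd lie below it and Mgp above it.

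A difference of the medium effect between VD3 and vehicle was called for 384 genes (1.82%), 204 with a more positive and 180 with a more negative value under VD3. Several bone genes were among them and were named after their values were seen. Ibsp averaged 104 ± 7.89 in adipogenic and 264 ± 11.9 RPKM in osteogenic cells with vehicle and 3.23 ± 0.404 in adipogenic and 89.1 ± 15.6 RPKM in osteogenic cells with VD3. Its difference changed by -3.07 ± 0.15 (SE), adjusted p = 1.69e-11. Omd, which rose with vehicle, averaged 9.88 ± 1.49 in adipogenic and 33.4 ± 2.33 RPKM in osteogenic cells with VD3, so its direction turned (change -2.41 ± 0.21 (SE), adjusted p = 4.2e-07). Mmp13, an interstitial collagenase, averaged 26.1 ± 1.8 in adipogenic and 48 ± 8.47 RPKM in osteogenic cells with vehicle and 17.1 ± 1.17 in adipogenic and 298 ± 43.7 RPKM in osteogenic cells with VD3 (change -3.20 ± 0.17 (SE), adjusted p = 7.07e-11). Mgp, whose gap became smaller, averaged 93.1 ± 20.1 in adipogenic and 699 ± 189.7 RPKM in osteogenic cells with VD3 (change 1.49 ± 0.27 (SE), adjusted p = 0.00273). Dio2 averaged 1.01 ± 0.496 in adipogenic and 193 ± 7.06 RPKM in osteogenic cells with VD3 (change -2.65 ± 0.21 (SE), adjusted p = 1.17e-07).

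Levels in the other untreated states place the differences, as a description with no test. Of 853 genes at least 2-fold higher in adipogenic cells with at least 10 RPKM there, undifferentiated cells lay between the 2 media in 494, below both in 351 and above both in 8. Of 1423 genes at least 2-fold lower, with at least 10 RPKM in osteogenic cells, undifferentiated cells lay between in 1089, above both in 324 and below both in 10. The 3 undifferentiated vehicle libraries had a receptor-gene median of 3.5 to 4.93 RPKM, above the 0.208 to 0.835 RPKM of the 6 libraries compared, and its part in these positions was not tested. Osteogenic cells at day 15 were on the osteogenic day 7 side of the midpoint for 799 of the 853 and 1307 of the 1423 genes.

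Single genes show these positions. Fabp4 averaged 51 ± 10.4 RPKM in undifferentiated cells and 5.79 ± 0.781 RPKM in osteogenic cells at day 15. Pparg averaged 32 ± 2.74 RPKM and 7.74 ± 1.25 RPKM in those states, so that the osteogenic levels at days 7 and 15 were the lowest of the 4 states. Spp1 averaged 1972 ± 136 RPKM in undifferentiated cells and 854 ± 17.3 RPKM at osteogenic day 15, so the adipogenic level was the lowest and the undifferentiated one the highest. Dmp1 averaged 1.59 ± 0.397 RPKM undifferentiated and 41.1 ± 5.64 RPKM at osteogenic day 15, with its highest level at osteogenic day 7. Runx2 averaged 5.72 ± 1.26 RPKM and 6.28 ± 1.08 RPKM, and its adipogenic level was below that of the other 3 states. Alpl averaged 5.44 ± 0.992 RPKM undifferentiated and 24.7 ± 5.88 RPKM at osteogenic day 15. Its lowest level was that of undifferentiated cells. The undifferentiated levels of Dmp1, Runx2 and Alpl were below or little above the receptor-gene median of those libraries (3.5 to 4.93 RPKM). The part of this background in their order, such as that of Runx2, was not tested. Acta2 averaged 689.9 ± 3.41 RPKM undifferentiated and 591 ± 28.9 RPKM at osteogenic day 15, and Col1a1 42.1 ± 2.94 RPKM and 104 ± 8.23 RPKM. For both genes the adipogenic cells had the lowest level of the 4 states.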

How the data were processed

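RNA of 24 libraries was depleted of ribosomal RNA and made into directional libraries, per the labels' protocols. Reads were aligned with TopHat to mm9, per the submitters' processing notes, and the quantification tool, annotation and use of strand are not given in the sources used here. The authors deposited RPKM for 30795 transcripts per library. Transcripts were summed here by symbol, without 40 transcripts under 25 symbols that read as dates, which gave 25385 genes. No read counts entered the tests. Depth was estimated from the step between low RPKM values of receptor genes of 900 to 1000 bases, and the floor of 3 reads covers counting error only.

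The 21097 genes that reached 1 RPKM in 3 or more of the 24 libraries were tested on log2(RPKM + 1) with limma 3.58.1 (R 4.3.3). The model had 8 groups over all libraries, with trend and robust empirical Bayes and Benjamini-Hochberg adjustment at 0.05, and was tested on simulated data. Tables were made with pandas 2.3.3 and numpy 2.4.6 (Python 3.11.15), and plots with matplotlib 3.10.9.

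The 52 gene lists came from general knowledge. The comparison, the lists and the rule for naming genes were chosen with earlier results of these data known. The rule took the 15 largest rises and falls of at least 5 RPKM without overlap, leaving out predicted, clone, small RNA, histone and sensory receptor genes, the largest called members of each list and those against its direction, fixed marker genes, and the 10 most abundant genes of each group. Not all genes that the rule names are printed, and some printed list members are not the largest. Promoters came from RefSeq (GRCm38.p6), were matched by symbol for 13098 genes, and are on another build than the deposited values. Alternatives were another pseudocount, filter, scaling, background subtraction, transcript choice, fit, replicate term and the omission of each library.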

Additional observations from a re-analysis of the deposited data

Results flagged for a closer look

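The difference between the media was itself tested for a change with VD3. Of 224 printed genes that were followed, 36 were called (limma, adjusted p below 0.05, 384 of 21097 genes tested, 1.82%). The values are the log2 difference among VD3-treated libraries minus that among vehicle libraries, each with 3 libraries per group.

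The sign of the medium difference turned for Id1 (-1.58) and Omd (-2.41). For Cyp24a1 (-2.51) no difference was called with vehicle (log2 difference 0.17, adjusted p = 0.572), and with VD3 it was lower in adipogenic cells (-2.34). Cyp24a1, the enzyme that inactivates VD3, averaged 0.252 ± 0.135 in adipogenic and 0.109 ± 0.096 RPKM in osteogenic cells with vehicle and 3.1 ± 0.429 in adipogenic and 19.8 ± 3.0 RPKM in osteogenic cells with VD3. The gap between the media was wider with VD3 for Cyp51 (0.54), Dio2 (-2.65), Fn1 (-0.93), Ibsp (-3.07), Mmp13 (-3.2), Thbs2 (-0.51) and Wnt5a (-0.56). It was narrower for Acta2 (1.04), Cebpa (-1.06), Col1a1 (0.79), Col4a2 (-0.41), Col8a1 (0.5), Csrp2 (1.11), Elovl6 (1.26), Errfi1 (0.84), Fbn1 (1.01), Insr (-0.5), Kitl (-1.45), Lamc1 (-0.59), Lpl (-0.94), Mgp (1.49), Neat1 (-1.24), Phex (0.96), Plau (0.76), Plin2 (-0.59), Sfrp4 (0.68), Tagln (1.2), Tes (0.8), Tgfb3 (0.64), Tgfbr2 (0.69), Timp3 (1.28), Top2a (0.77) and Tsc22d3 (-0.77). The contractile genes Acta2, Tagln and Csrp2 are all in this last set, with Acta2 averaging 135 ± 3.32 in adipogenic and 722 ± 38.1 RPKM in osteogenic cells under VD3, beside 84.2 ± 4.24 in adipogenic and 932 ± 54.9 RPKM in osteogenic cells with vehicle. So are Cebpa, which averaged 108 ± 2.98 in adipogenic and 29.9 ± 3.12 RPKM in osteogenic cells under VD3, and Kitl, which averaged 79.6 ± 2.34 in adipogenic and 37.1 ± 3.95 RPKM in osteogenic cells. No cause was tested.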

How the results depend on the processing

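Under 18 alternatives the number of genes that rose ranged from 2041 (background subtraction) to 3893 (median-ratio rescaling) beside 2626, and the number that fell from 3825 (median-ratio rescaling) to 5520 (background subtraction) beside 5351. Leaving out 1 library gave 2326 to 2482 rises and 4910 to 5033 falls. Rises made up 32.9% of the calls as reported, 50.4% with median-ratio rescaling, 43.6% with quantile normalization and 27% with background subtraction. Fitting only the 6 libraries gave 3720 rises and 5542 falls, and leaving out the 6 undifferentiated libraries, chosen after seeing the data, 3239 and 5473. Of the 7977 calls, 80.9 to 99.3% were kept with the same sign across the alternatives that used all vehicle libraries.

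The labels state no pairing by replicate number, and the main fit used none. Deviations of same-numbered libraries correlated at 0.0296, 0.1272 and 0.0533, and those of differently numbered libraries at -0.1018 to 0.0532. Of the adipogenic libraries replicates 2 and 3 correlated best with their own number. These values do not settle whether the libraries were weakly paired. The replicate block gave 2642 rises, 5306 falls, and 1232 and 2220 changes of at least 2-fold higher and lower, beside 1219 and 2221 without it.

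Of 224 printed genes that were followed, 203 kept direction and call throughout. Sptlc3, Ubd, Rn7sk and the markers given only as ranges, such as Kdr and Acta1, were not followed. Among VD3-treated libraries the sign turned for Id1 (-0.98) and Omd (-1.67), which were called with both treatments. The sign was also opposite for Cebpb (-0.32), not called with VD3, and for Cebpd (-0.35) and Cyp24a1 (-2.34), not called with vehicle. The causes were not tested. Dusp1 (-0.46) lost its call under quantile normalization and Nfe2l2 (-0.28) and Col6a1 (-0.19) under median-ratio rescaling, where Acly (0.31), Atf4 (0.42) and Tfam (0.46) became called. Wwtr1 became called among VD3-treated libraries (-0.34). Of the lists with no rise as reported, median-ratio rescaling gave 2 among collagen-processing and 1 among osteocyte genes, and of those with no fall, VD3-treated libraries gave 2 among adipogenic factors and the fit on 6 libraries 1 among respiratory chain genes. Rises in the BMP and TGF-beta list numbered 2 after background subtraction and 3 without osteogenic replicate 2, beside 5, and those in the YAP, TEAD and SRF list 0 after background subtraction, beside 2. Falls were 3 of 33 detoxification, 2 of 27 glycolysis and 2 of 36 mitochondrial biogenesis genes under median-ratio rescaling, beside 6, 4 and 4. The median of the class I antigen list was -0.16 as reported and 0.07 under median-ratio rescaling. Depth limits genes below about 0.25 RPKM in the shallowest library, and no test of depth itself was made.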
